A study of Homo sapiens with 6 samples.

Results

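Transgelins, calponins, tropomyosins, caldesmon and smooth muscle actin were followed in HT1080 cells, an established human fibrosarcoma line of fibroblast-like morphology, with and without a TOP3B knockout. The 9 genes (TAGLN, TAGLN2, ACTA2, CNN1, CNN2, CNN3, TPM1, TPM2 and CALD1) were chosen by symbol, all 9 were found, and the table held 35819 genes. They were gathered around the lower level of TAGLN in the knockout, so TAGLN is described here without a test, and the counts below support nothing about the group. Total RNA depleted of ribosomal RNA was sequenced from 3 wild-type (WT) libraries and 3 libraries of a TOP3B knockout, all grown in DMEM with fetal bovine serum. A CRISPR guide against exon 2 gave the knockout cells, which carry the name E2-2. No second knockout line is named, so each difference is between E2-2 and WT cells, and whether E2-2 is 1 clone is not stated. The study asked what TOP3B, a topoisomerase acting on DNA and RNA, does to R-loops and to transcription. Separate cultures are not mentioned in the labels, and the replicate spread behind each p-value may be technical.

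Genes of smooth muscle actin and of the proteins that bind it equip a cell to build and tense actin bundles. Tropomyosins lie along the actin filament, caldesmon and calponin bind it and restrain myosin, and transgelin, which shares the calponin homology domain, cross-links filaments. In fibroblasts they mark the myofibroblast state and respond to TGF-beta and to serum response factor (SRF), which binds a promoter element called the CArG box with myocardin-family cofactors.

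The estimated counts summed to between 17919106 and 20475280 per library. Knockout replicate 3 stood apart from knockout replicates 1 and 2, with a median size of the log2 difference of 0.37 per gene, against 0.31 for the farthest WT library from the other WT libraries, and the medians and calls that it moves are given with and without it. TOP3B itself had 536, 376 and 469 counts in the WT libraries, against 407, 383 and 361 in the knockout libraries (log2 fold change -0.33 ± 0.19 SE, edgeR adjusted p = 0.342). Since an exon 2 edit can leave the RNA in place, the labels are not checked by this level. In the series text the WT cells are once given as HCT116, a colon line, and every sample label gives HT1080. Of 12 colon epithelial markers 11 were in the table. KRT20 and CDX2 were at 0 in all libraries, and EPCAM lay at or under 0.295 CPM (counts scaled to library size). KRT18 lay at 14.4 to 34.8 CPM, CDH1 at 1.36 to 2.43 and LGALS4 at 1.08 to 3.12 over the 6 libraries. The summed level of the markers, most of it KRT8, was 106.5 to 118.7 CPM in WT and 109.5 to 132.4 CPM in the knockout. Vimentin (VIM), a mesenchymal filament protein, was at 11666 ± 594 CPM in WT and 11525 ± 173 CPM in the knockout (SD, n = 3 each).

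Promoter sequences were taken from RefSeq (GRCh38.p14), as windows of 250 bases before to 50 bases after an annotated start, 5′ to 3′ on the strand of the gene. The table matched 8 of the 9 genes (all but TAGLN), with 16 windows. Below are the windows that carry the CArG box or a near match in a smooth muscle actin, a calponin and caldesmon, with the matched 10 bases in capitals, and the window of TPM1, the member highest per length, which has none. ACTA2 is chr10:88952724-88953023 on the minus strand, CNN2 is chr19:1026358-1026657 on the plus strand, CALD1 is chr7:134711249-134711548 on the plus strand (1 of its 4 windows), and TPM1 is chr15:63048239-63048538 on the plus strand.
ACTA2: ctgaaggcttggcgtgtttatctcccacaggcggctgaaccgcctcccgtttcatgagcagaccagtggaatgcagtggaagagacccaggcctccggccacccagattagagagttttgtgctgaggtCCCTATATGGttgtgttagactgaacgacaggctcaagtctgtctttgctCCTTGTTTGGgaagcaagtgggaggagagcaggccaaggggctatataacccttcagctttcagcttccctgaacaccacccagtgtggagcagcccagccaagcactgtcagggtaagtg
CNN2: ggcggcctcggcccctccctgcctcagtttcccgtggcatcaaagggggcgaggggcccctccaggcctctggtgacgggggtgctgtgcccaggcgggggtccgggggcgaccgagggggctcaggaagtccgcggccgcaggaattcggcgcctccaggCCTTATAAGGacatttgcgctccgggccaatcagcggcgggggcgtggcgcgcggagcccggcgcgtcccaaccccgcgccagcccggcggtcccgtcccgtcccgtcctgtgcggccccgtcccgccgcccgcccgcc
CALD1: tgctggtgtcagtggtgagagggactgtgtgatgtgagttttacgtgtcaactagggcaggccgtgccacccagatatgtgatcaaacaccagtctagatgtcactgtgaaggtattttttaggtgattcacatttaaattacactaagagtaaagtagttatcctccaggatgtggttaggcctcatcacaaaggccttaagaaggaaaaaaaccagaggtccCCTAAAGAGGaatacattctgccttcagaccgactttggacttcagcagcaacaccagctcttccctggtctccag
TPM1: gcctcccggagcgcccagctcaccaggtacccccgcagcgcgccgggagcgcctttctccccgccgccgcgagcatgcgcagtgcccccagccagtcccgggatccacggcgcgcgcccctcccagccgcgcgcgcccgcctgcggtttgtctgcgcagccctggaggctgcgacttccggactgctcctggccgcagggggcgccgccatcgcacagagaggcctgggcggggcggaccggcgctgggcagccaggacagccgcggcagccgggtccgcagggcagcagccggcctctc

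CNN2 held an exact CArG box, CCTTATAAGG, starting 89 bases before the start site. It was the only exact match in the 16 windows, and 1.29% of 35116 promoter windows hold one. ACTA2 held CCCTATATGG and CCTTGTTTGG, each with 1 mismatch, 121 and 71 bases before the start. With up to 1 mismatch allowed, 4 of the 16 windows matched (1 of ACTA2, 1 of CNN2 and 2 of CALD1), against 18.9% of all windows. The TEAD element CATTCC, read on both strands, was in 4 of the 16 windows (1 of ACTA2, 1 of CNN3 and 2 of CALD1) and in 14.0% of all. TATAAA, also on both strands, was in 1 of 16 (CALD1) and in 11.5% of all. The 3 kinds of motif did not overlap each other in the member windows, and an exact CArG box is also counted among those with up to 1 mismatch. A match describes letters in a window and is neither a shown binding site nor a cause.

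TAGLN encodes transgelin, an early marker of the smooth muscle lineage. It was counted at 85.2, 82.0 and 63.7 CPM in the WT libraries, and at 15.5, 16.8 and 14.4 CPM in the knockout libraries. Every knockout library lay below every WT library, and the highest knockout library was far under the lowest WT library. The WT mean was 76.9 ± 11.6 CPM and the knockout mean 15.6 ± 1.17 CPM (SD, n = 3 each). The log2 fold change was -2.31 ± 0.16 (SE). These are the values that chose the group and carry no test. Knockout replicate 3 did not depart from its group here, and without it the log2 fold change was -2.26.

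TAGLN2, the widely expressed transgelin relative, did not follow it. It was at 43.9, 34.3 and 37.0 CPM in WT, and at 32.2, 25.6 and 128 CPM in the knockout. Knockout replicates 1 and 2 lay below all WT libraries and replicate 3 above them all. Its difference of 0.69 ± 0.59 (SE, log2) missed the threshold (edgeR quasi-likelihood test, adjusted p = 0.513, within 0.154 to 0.771 over the alternatives), and it was -0.42 ± 0.16 without knockout replicate 3 (adjusted p = 0.154). TAGLN made up 75.3%, 79.0% and 73.0% of the summed RPKM (reads scaled by gene length and library depth) of both transgelins in WT. In the knockout it made up 43.0%, 50.6% and 15%. Per kilobase of merged exons, a length without introns, the WT shares were 55.2%, 60.3% and 52.2%, against 23.4%, 29.3% and 6.69% in the knockout libraries. On both scales all knockout libraries had a lower share than all WT libraries, and replicate 3 had the lowest. These shares hold the TAGLN values that chose the group, so their fall is a description and no separate result.

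ACTA2 encodes smooth muscle alpha-actin, the classic myofibroblast marker. It was at 17.3, 26.3 and 24.1 CPM in WT, and at 18.4, 12.8 and 0.307 CPM in the knockout. The last value is 6 counts, against 374 and 255 in knockout replicates 1 and 2, so replicate 3 was 50.9-fold below their mean. The groups overlapped, because knockout replicate 1 exceeded WT replicate 1. The log2 fold change was -1.10 ± 0.97 (SE, edgeR adjusted p = 0.527, within 0.205 to 0.710 over the alternatives), and -0.54 ± 0.24 without knockout replicate 3 (adjusted p = 0.205). The annotated span of ACTA2 overlaps FAS by 758 bases, ACTA2-AS1 by 5747 and STAMBPL1 by 40080, all on the opposite strand. ACTA2-AS1 had 34, 18 and 37 counts in WT against 18, 29 and 7 in the knockout, and FAS, the death receptor, at 6, 8 and 55 in WT and 0 in each knockout library. STAMBPL1 kept to a range of 136 to 153 counts over all 6 libraries. The library kit marks strand, but the sources do not state if the counting made use of it, and reads of ACTA2 and of these partners may then be mixed.

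**Figure D1:**
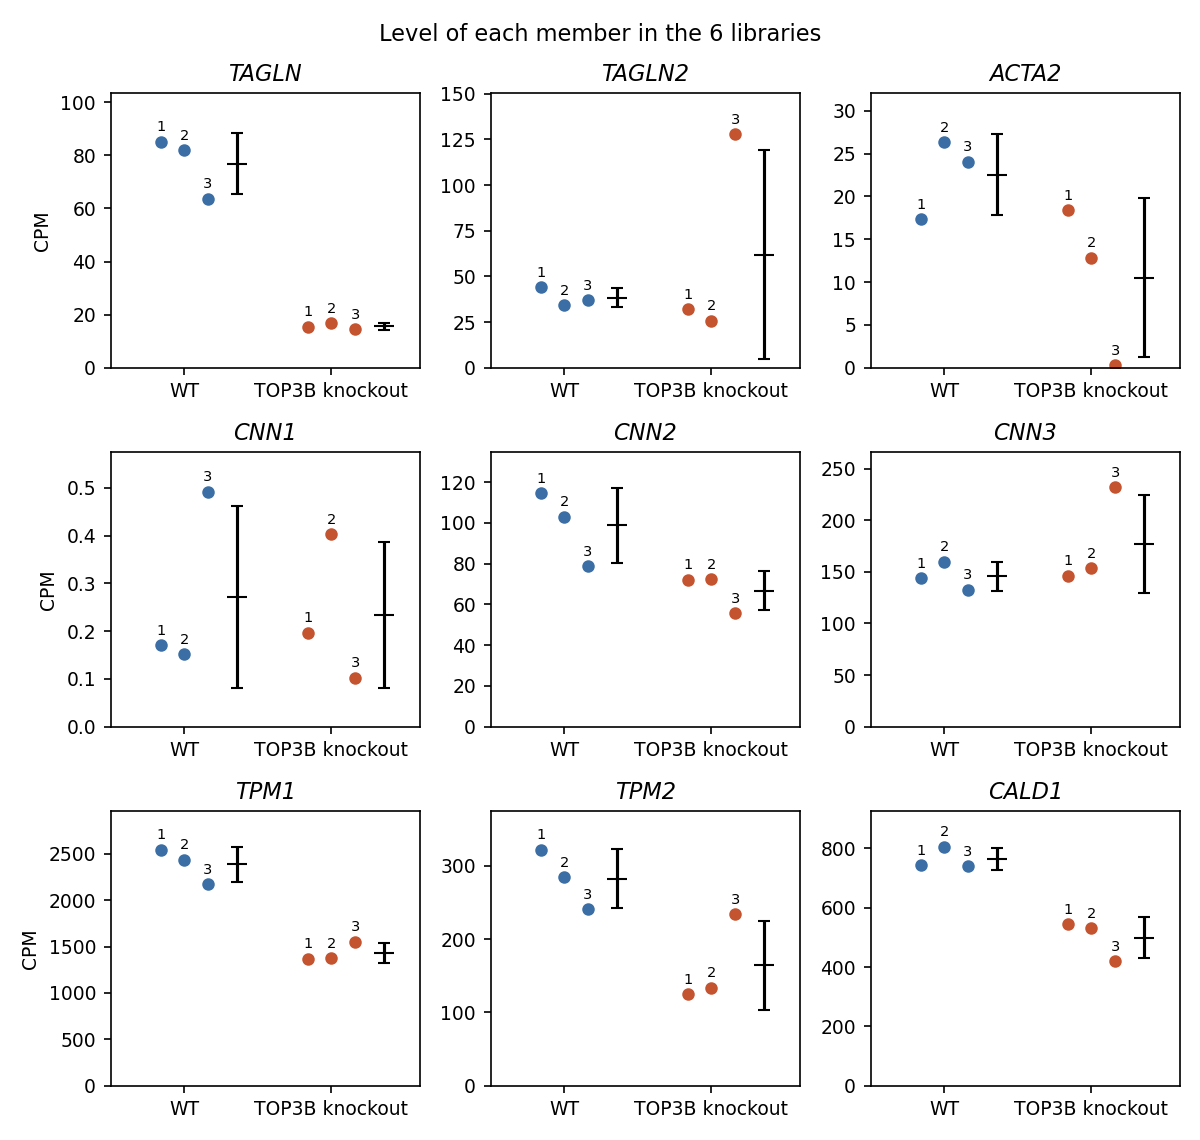
CPM (vertical axes, each from 0) of the 9 members in WT (blue) and TOP3B knockout (red) libraries, each point 1 library labelled with its replicate number, the black mark and bar the mean and SD of 3. TAGLN, CNN2, TPM1, TPM2 and CALD1 have all knockout libraries below all WT libraries, while TAGLN2 and ACTA2 in knockout replicate 3 lie at 128 and 0.307 CPM.

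By RPKM the tropomyosins TPM1 and TPM2 were the members highest per length, in WT and in the knockout. TPM1, which gives stress fibre and muscle tropomyosins by alternative splicing, was at 2545, 2439 and 2173 CPM in WT and at 1368, 1372 and 1552 CPM in the knockout. The groups did not overlap. TPM1 fell 1.67-fold (log2 fold change -0.74 ± 0.09 SE, edgeR adjusted p = 0.00804). It passed in each of the 6 fits with 1 library left out, with the adjusted p at most 0.0490. Gene-level counts do not separate its muscle and non-muscle isoforms.

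TPM2 encodes beta-tropomyosin. It was at 322, 284 and 241 CPM in WT and at 125, 134 and 234 CPM in the knockout. Knockout replicate 3 lay just under the lowest WT library, and the other knockout libraries lay well below. Its difference of -0.78 ± 0.25 (SE, log2) missed the threshold (edgeR adjusted p = 0.117, within 0.00526 to 0.283 over the alternatives). It was -1.14 ± 0.13 without knockout replicate 3 and then passed (adjusted p = 0.00526). DESeq2 called it with all 6 libraries (adjusted p = 0.0246).

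CALD1 encodes caldesmon, which binds actin, tropomyosin and myosin. It was at 743, 806 and 740 CPM in WT and at 545, 531 and 420 CPM in the knockout. The groups did not overlap, and knockout replicate 3 was the lowest library. CALD1 fell 1.53-fold (log2 fold change -0.61 ± 0.11 SE, edgeR adjusted p = 0.0256). Leaving out WT replicate 1, 2 or 3, or knockout replicate 1 or 2, ended the call (adjusted p = 0.0837, 0.107, 0.0901, 0.0535 and 0.0703), and it held without knockout replicate 3 at a log2 fold change of -0.51 (adjusted p = 0.00437).

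The 3 calponins differed among themselves. CNN1, the calponin of differentiated smooth muscle, had 3, 3 and 10 counts in WT and 4, 8 and 2 in the knockout. It was too low for the filter and was not tested. CNN2, the calponin of non-muscle cells, was at 115, 103 and 78.8 CPM in WT and at 72.1, 72.2 and 55.7 CPM in the knockout. All knockout libraries lay below all WT libraries, but the difference of -0.57 ± 0.18 (SE, log2) missed the threshold (edgeR adjusted p = 0.106, within 0.0258 to 0.263 over the alternatives), while DESeq2 called it (adjusted p = 0.0258). CNN3, acidic calponin, was at 144, 160 and 133 CPM in WT and at 146, 154 and 232 CPM in the knockout. Only knockout replicate 3 lay above the WT range, and the log2 fold change of 0.28 ± 0.19 (SE, edgeR adjusted p = 0.404, within 0.292 to 0.847 over the alternatives) was 0.03 ± 0.09 without it. CNN2 made up 56.3% to 63.3% of the summed RPKM of CNN2 and CNN3 in WT, and 51.7%, 50.5% and 34.3% in knockout replicates 1, 2 and 3. Per kilobase of merged exons these shares were 31.6% to 38.3% in WT and 27.7%, 26.8% and 15.8% in the knockout. In every library but knockout replicate 3, which of the 2 calponins was the more abundant thus depended on the length used. On both lengths the CNN2 share in every knockout library was below that in every WT library.

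**Figure D2:**
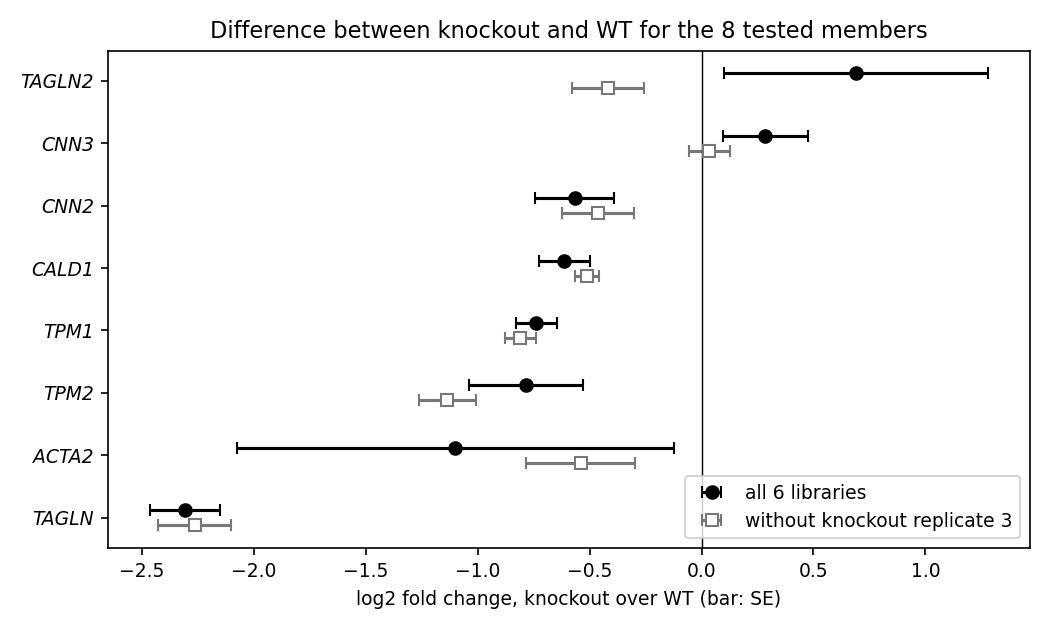
Log2 fold change, knockout over WT (horizontal axis, bars SE), of the 8 tested members with all 6 libraries (black) and without knockout replicate 3 (open squares). TAGLN lies at -2.31 and -2.26, and TAGLN2 moves from 0.69 to -0.42.

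Of the 7 tested members other than TAGLN, TPM1 and CALD1 were called lower, none was called higher, and 5 did not pass. At an unadjusted edgeR p under 0.05, 4 were lower and none higher, and DESeq2 called none higher either. For counts at an unadjusted p, here and below, no share of all tested genes is given. The shares at an adjusted p do not apply to them, and nothing is read from such counts. Of all 13965 genes tested, 7.84% were called, 4.63% lower and 3.21% higher, at an edgeR adjusted p under 0.05. Without knockout replicate 3, TPM1, TPM2 and CALD1 were called lower, where 13.2% of 14358 tested genes were called, 7.84% lower and 5.39% higher. DESeq2 called 4 of the 7 (CNN2, TPM1, TPM2 and CALD1), and 15.7% of all genes. All 3 knockout libraries lay below all WT libraries for 4 of the 7 (CNN2, TPM1, TPM2 and CALD1) and for 17.1% of all tested genes. The median log2 fold change of the 7 was -0.61, and 0.05 over all tested genes (-0.51 and 0.01 without knockout replicate 3). Because the group was gathered with this contrast in view, nothing is read from these shares.

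The departure of knockout replicate 3 was uneven across the members. On the log2 scale of CPM plus 0.5, it differed from the mean of knockout replicates 1 and 2 by -4.30 for ACTA2 and by 2.14 for TAGLN2. Departures larger than these were seen in 0.129% and 1.85% of tested genes. The difference was 0.85 for TPM2, 0.63 for CNN3, -0.37 for CNN2 and -0.36 for CALD1. For TAGLN it was -0.15 and for TPM1 0.18, and 77.4% and 73.3% of tested genes departed more. The farthest WT library of each member differed from the other WT libraries by 0.12 (CALD1) to 0.53 (ACTA2). The sign of the TAGLN2 difference and the size of the ACTA2 difference rest on this 1 library, whereas TAGLN and TPM1 were near the same level in all 3 knockout libraries.

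**Figure D3:**
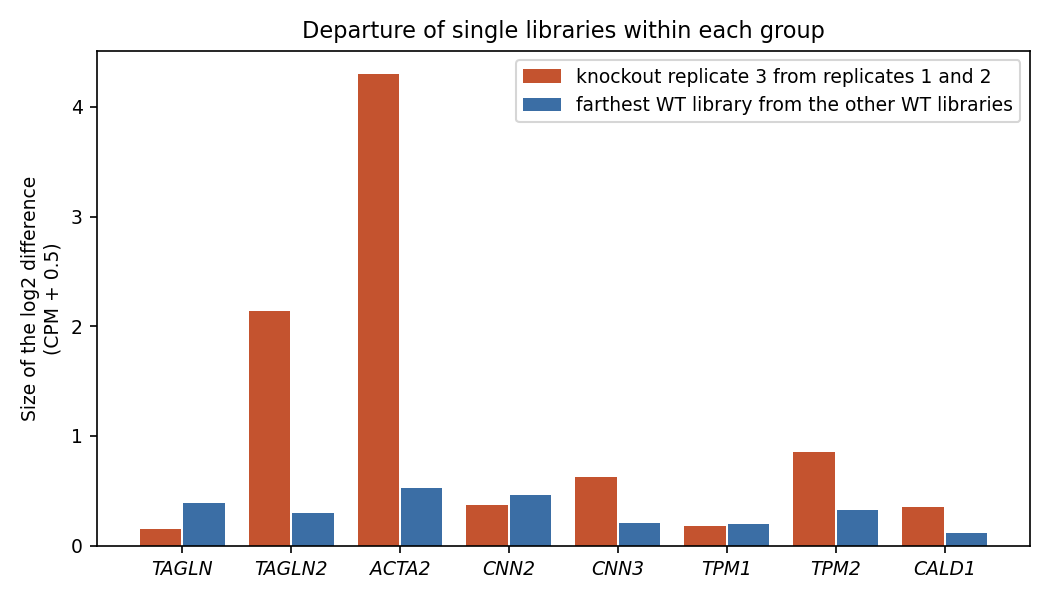
Size of the log2 difference in CPM plus 0.5 (vertical axis, from 0) between knockout replicate 3 and the mean of replicates 1 and 2 (red), and between the farthest WT library and the mean of the other WT libraries (blue), for the 8 tested members. ACTA2 and TAGLN2 (2.14) have the tallest red bars, above all WT bars, which reach 0.53.

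Levels of different genes were compared per length. By the deposited RPKM the order in WT was TPM1 (114 ± 8.23, SD, n = 3), TPM2 (55.8 ± 7.71), TAGLN (18.5 ± 2.63), CNN2 (9.88 ± 1.76), CALD1 (7.66 ± 0.281), CNN3 (6.71 ± 0.542), TAGLN2 (5.89 ± 0.787), ACTA2 (0.836 ± 0.170) and CNN1 (0.0363 ± 0.0298). CNN3 and TAGLN2 overlapped between libraries, and the other neighbours in this order did not. In the knockout TAGLN had moved from the third to the seventh place at 3.88 ± 0.212 RPKM, under CALD1 at 5.20 ± 0.564 RPKM, and did not overlap with it. The RPKM length followed the mean span of the transcripts on the genome with their introns, for example 97535 bases implied for CALD1 against 9843 bases of merged exons. Per kilobase of merged exons, CALD1 in WT stood in the third place at 77.5 CPM per kilobase, overlapping TPM2 at 87.0, and TAGLN stood in the sixth place at 19.6, overlapping CNN2 and TAGLN2. On this scale TAGLN was in the seventh place in the knockout, at 3.97 CPM per kilobase and overlapping ACTA2, and TPM2 at 50.5 lay under CNN3 at 62.5 and CALD1 at 50.7, the 3 overlapping each other. In both orders TPM1 was first and ACTA2 and CNN1 last, in WT and in the knockout, although ACTA2 and CNN1 overlapped in the knockout.

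**Figure D4:**
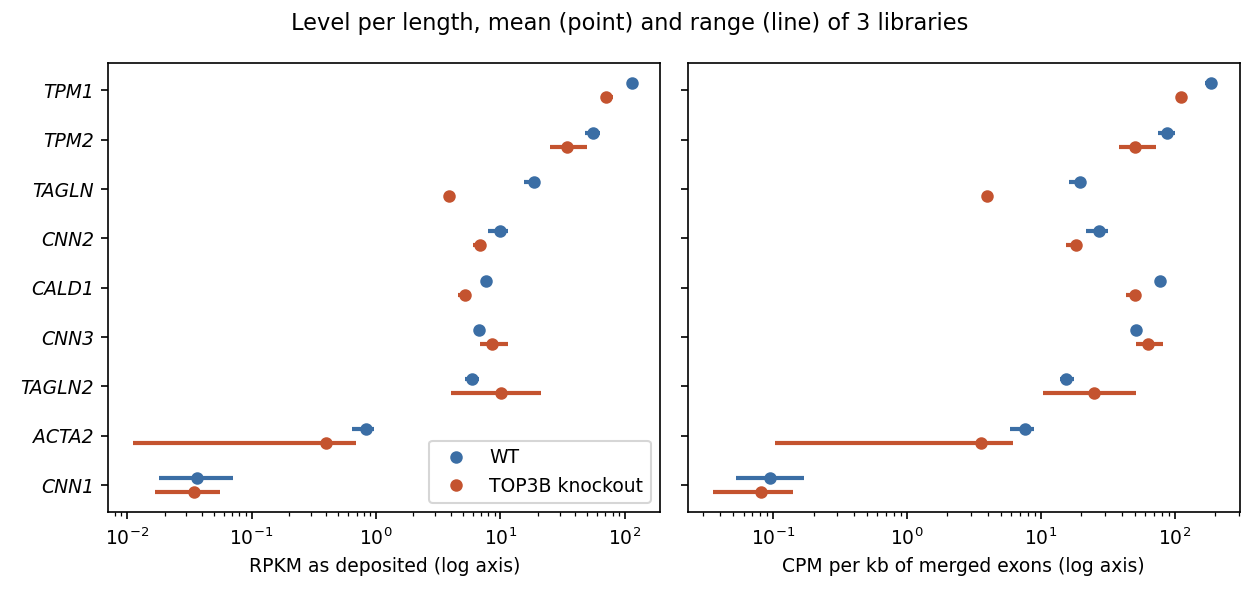
Level per length of the 9 members, as deposited RPKM (left) and as CPM per kilobase of merged exons (right), on log axes, with the mean (point) and the range (line) of 3 libraries in WT (blue) and knockout (red). TPM1 is highest on both scales, and TAGLN in the knockout lies at 3.88 RPKM against 18.5 in WT.

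Some actin and actin-binding genes that textbooks give as abundant were low in these libraries, and the completeness of their counting was not tested. Beta-actin (ACTB) was at 87.6 ± 9.47 CPM in WT and 70.4 ± 3.28 CPM in the knockout (SD, n = 3 each), and gamma-actin (ACTG1) at 24.5 ± 7.20 and 25.0 ± 3.03 CPM. Non-muscle myosin heavy chain (MYH9) was at 25.5 ± 12.5 and 22.2 ± 5.17 CPM, and the tropomyosin TPM4 at 3.66 ± 1.09 and 3.43 ± 0.939 CPM (SD, n = 3 each). The actins have many pseudogene copies, and members of the actin, tropomyosin and transgelin families resemble each other, so their counts are uncertain. Of 9 listed relatives of the members 8 were in the table and 5 were tested, with none called by edgeR or by DESeq2 and 1, ACTB, lower at an unadjusted p under 0.05. TPM3, a tropomyosin of most cell types, was at 1117 ± 47.2 and 1090 ± 60.7 CPM (SD, n = 3 each) and ACTB had a log2 fold change of -0.32 ± 0.12 (SE, edgeR adjusted p = 0.155, within 0.0684 to 0.342 over the alternatives). TPM3 took 23.3% to 25.9% of the summed RPKM of TPM1 to TPM4 in WT and 29.6% to 38.5% in the knockout, while TPM1 took 50.2% to 50.7% and 43.2% to 44.5%. Per kilobase of merged exons TPM3 took 31.3% to 34.3% in WT and 48.3%, 47.2% and 38.7% in the knockout, against 45.6% to 45.7% and 37.9%, 38.0% and 38.3% for TPM1, so TPM3 was above TPM1 in each knockout library on this scale only. These sums include the low TPM4.

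Other genes of the smooth muscle contractile set moved in both directions. Of 23 listed, 22 were in the table, 14 were tested, 5 fell, 1 rose and 8 missed the threshold. Among all tested genes 4.63% were called lower and 3.21% higher. CRYAB, among the 5, passed the low-count filter through its WT counts alone and had to differ, so 4 are left without it. The median log2 fold change of the 14 was 0.03, against 0.05 over all tested genes, and -0.12 against 0.01 without knockout replicate 3. In that fit 6 were called lower, CRYAB among them, and 2 higher. Of all tested genes, 7.84% were then called lower and 5.39% higher. The largest fall by the naming rule was PDLIM3, a Z-disc protein binding alpha-actinin, at 14.7 ± 0.726 against 5.89 ± 0.852 CPM (SD, n = 3 each). PDLIM3 had a log2 fold change of -1.32 ± 0.18 (SE, edgeR adjusted p = 0.0104) and lost its call without WT replicates 2 and 3 (adjusted p up to 0.0608). The other genes that fell are named after their values were seen.

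MYL9, the regulatory light chain on which contraction of smooth muscle and stress fibres is switched, was at 239, 228 and 198 CPM in WT and at 100.0, 96.9 and 112 CPM in the knockout. Its groups did not overlap, and it fell 2.15-fold (log2 fold change -1.11 ± 0.11 SE, edgeR adjusted p = 0.00434, at most 0.0381 with 1 library left out). PDLIM7, a PDZ and LIM protein on actin bundles, fell 1.79-fold and passed in all 6 of those fits too. PDLIM5, of the same family, fell 1.36-fold and passed in 1 of the 6 (without knockout replicate 3, adjusted p up to 0.146 in the others). CRYAB, a small heat shock protein, had 39 counts summed over WT and 0 in each knockout library. It was at least 13.5-fold lower against a floor of 3 counts over the knockout group, and also passed in only 1 of the 6 (without knockout replicate 3). With a filter of 1 CPM in 3 libraries it was not tested. MYLK, the kinase that phosphorylates the light chain, was at 249 ± 23.1 and 268 ± 18.1 CPM, and smoothelin (SMTN) at 65.3 ± 7.71 and 66.8 ± 8.10 CPM (SD, n = 3 each). Neither passed.

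The factors that drive these genes, and other targets of SRF, came next. Of 27 listed, 22 were in the table and 20 tested. FHL2 rose, none fell and 19 missed the threshold, where 4.63% of all tested genes were called lower and 3.21% higher. The median log2 fold change of the 20 was -0.07, and -0.21 without knockout replicate 3. In that fit 1 was called lower and 1 higher, where 7.84% of all tested genes were called lower and 5.39% higher. DESeq2 called 1 lower and 1 higher, and of all 13965 tested genes 1283 lower and 916 higher (15.7% in either direction). At an unadjusted edgeR p under 0.05, 4 were lower and 1 higher, with no share of all tested genes given. FHL2, a LIM-domain cofactor and SRF target, was at 360, 410 and 391 CPM in WT and at 584, 606 and 584 CPM in the knockout. It rose 1.53-fold (log2 fold change 0.61 ± 0.08 SE, edgeR adjusted p = 0.00853) and lost its call without WT replicate 3 (adjusted p = 0.0555). SRF itself was not analysed here. Its cofactor gene MRTFB was at 20.9 ± 2.99 and 25.2 ± 3.57 CPM (SD, n = 3 each). MRTFA, another cofactor gene, was at 1.31, 2.03 and 1.38 CPM in WT and at 0.885, 0.554 and 5.73 CPM in the knockout. For MRTFA, knockout replicates 1 and 2 (18 and 11 counts) lay below all WT libraries and replicate 3 (112 counts) above them all. Neither MRTFB nor MRTFA passed. MYOCD, the smooth muscle cofactor, was at 0 in all libraries except knockout replicate 3.

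Of 31 listed actin filament binding proteins 30 were in the table and 29 tested, 3 fell, none rose and 26 missed the threshold, where 4.63% of all tested genes were called lower and 3.21% higher. The median log2 fold change of the 29 was -0.03. At an unadjusted edgeR p under 0.05, 3 were lower and 2 higher, with no share of all tested genes given. DESeq2 called 3 lower and 1 higher, and of all 13965 tested genes 1283 lower and 916 higher (15.7% in either direction). Without knockout replicate 3 the median was 0.01, and 5 were called lower and 2 higher. In that fit 7.84% of all tested genes were called lower and 5.39% higher. ENAH, which lengthens filaments at their tips, was at 230.5 ± 7.65 against 98.4 ± 25.0 CPM (SD, n = 3 each), and PALLD, the scaffold palladin, at 47.8 ± 1.64 against 23 ± 3.28 CPM. Their log2 fold changes were -1.23 ± 0.19 and -1.05 ± 0.14 (SE, edgeR adjusted p = 0.0137 and 0.0102). ENAH passed in 2 and PALLD in 4 of the 6 fits without 1 library. ENAH lost its call without WT replicates 1, 2 and 3 and knockout replicate 2, and PALLD without WT replicates 2 and 3. PFN2, a profilin that feeds actin monomers to growing filaments and is named after its value was seen, fell 1.73-fold and lost its call in the same 4 fits as ENAH. The actin cross-linkers ACTN1 and ACTN4, also named after their values were seen, were at 2562 ± 195.5 and 1002 ± 83.4 CPM in WT and at 2306 ± 82.2 and 1001 ± 47.8 CPM in the knockout (SD, n = 3 each), and neither passed.

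**Figure D5:**
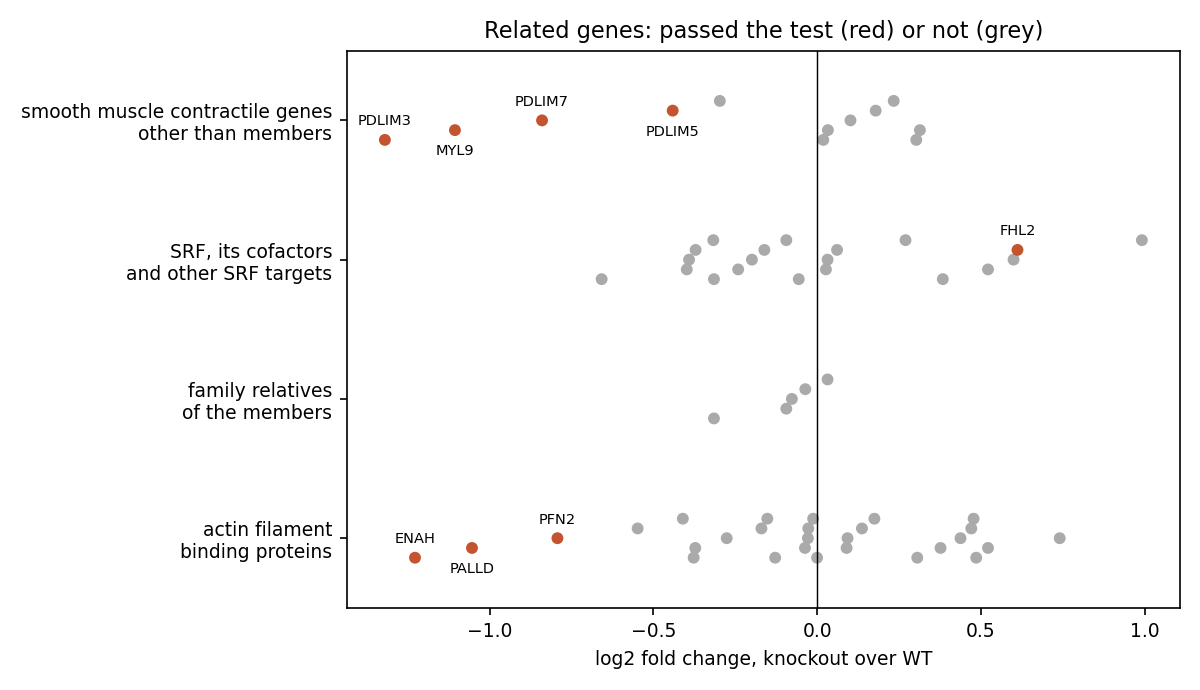
Log2 fold change, knockout over WT (horizontal axis), of the tested genes of 4 lists of genes related to the members, 1 point per gene, red where the edgeR adjusted p was under 0.05 and named. CRYAB, at 0 in the knockout, is among 3 tested genes that are not drawn. The contractile list holds 4 of the drawn genes that fell, and the list of relatives holds none.

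The smooth muscle label was checked against defining markers. Of 11 listed markers, which include TAGLN, ACTA2 and CNN1, 10 were in the table and 4 were tested. MYH11, the smooth muscle myosin heavy chain, DES, ACTG2 and MYOCD each stayed at or under 0.148 CPM in every library. The summed level of the markers was 154.6 to 177.1 CPM in WT and 91.4 to 99.2 CPM in the knockout, most of it TAGLN and SMTN. Of 10 skeletal muscle markers 4 were in the table, and their summed level, most of it MYH3, was 4.72 to 4.95 CPM in WT and 4.72 to 9.01 CPM in the knockout. The 11 fibroblast and mesenchymal markers, led by VIM, summed to 11330 to 12367 CPM and 11379 to 11718 CPM. That sum is nearly all VIM. The untested markers of this list were low in both groups. LUM was at 0 in all libraries, and THY1, COL3A1 and FAP stayed at or under 0.285 CPM. PDGFRA, DCN and COL1A2 stayed at or under 0.885 CPM. Of the 4 tested, COL1A1, a fibrillar collagen chain named after its values were seen, fell from 6.20 ± 0.433 to 1.33 ± 0.507 CPM (SD, n = 3 each, log2 fold change -2.22, edgeR adjusted p = 0.0156). S100A4 had -1.27 (edgeR adjusted p = 0.0893), and the median of the 4 was -0.93 (-1.25 over 5 tested without knockout replicate 3). DESeq2 called 2 of the 4 lower, where it called 1283 of all 13965 tested genes lower. The part of these markers in the members' differences was not tested. The members are genes of an actin and of actin-binding proteins in a fibrosarcoma line here, in which the defining myosin and cofactor of smooth muscle were at or near 0. In bulk RNA, fewer cells carrying a transcript and less of it per cell cannot be told apart.

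The members lie on 7 chromosomes in GENCODE v29 (GRCh38). TAGLN is at chr11:117199321-117204782 on the plus strand, TAGLN2 at chr1:159918107-159925732 and CNN3 at chr1:94896949-94927278, both on the minus strand. ACTA2 is at chr10:88935074-88991339 and TPM2 at chr9:35681992-35690121, both on the minus strand. CNN1 at chr19:11538717-11550323, CNN2 at chr19:1026581-1039068, TPM1 at chr15:63042632-63071915 and CALD1 at chr7:134744252-134970728 are on the plus strand. Median log2 fold changes of all tested genes on these chromosomes ran from -0.18 on chromosome 10 to 0.24 on chromosome 11, that of TAGLN. Over all tested genes the median was 0.05, and a part of the chromosome in the TAGLN difference was not tested. Within 1 Mb of TAGLN 10 other genes were tested, with a median log2 fold change of 0.13. Of these 1 was called lower and none higher, where 4.63% of all tested genes were called lower and 3.21% higher. At an unadjusted edgeR p under 0.05, 2 were lower and none higher, and DESeq2 called 1 lower and none higher. Within 2 Mb 37 were tested, with a median of 0.24, 2 lower and 4 higher. The 1 called lower by edgeR within 1 Mb was BACE1, the beta-secretase, named after its value was seen. It was at 107.5 ± 11 against 48.9 ± 9.28 CPM (SD, n = 3 each). BACE1 lost its call without WT replicates 1 and 3 and knockout replicate 2 (edgeR adjusted p up to 0.0580). PCSK7, a proprotein convertase whose end overlaps TAGLN by 446 bases on the opposite strand, was at 102, 94.1 and 102 CPM in WT and at 110, 114 and 169.5 CPM in the knockout, above WT in all 3, and did not pass (log2 fold change 0.40, edgeR adjusted p = 0.219, within 0.187 to 0.448 over the alternatives). Without knockout replicate 3 it was 0.17.

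Likeness to TAGLN was measured as the root mean square difference, over the 6 libraries, between log2 profiles centred on their means. Among the 9510 tested genes whose mean reached 5 CPM, the nearest were UNC5B, a netrin receptor (0.186), NMRAL2P, a pseudogene (0.20), MUC13, a transmembrane mucin (0.218), MMP9, a gelatinase (0.233), and L1CAM, an adhesion molecule (0.244). Each was lower in all knockout libraries, as TAGLN was. UNC5B was at 31.5, 29.4 and 28.9 CPM in WT and at 4.43, 5.24 and 5.58 CPM in the knockout. The members were ranked in a wider set, all 13964 other tested genes with no minimum level. Of the other members TPM1 was the nearest to TAGLN, at 0.774 and place 649, and TAGLN2 the farthest, at 1.51 and place 12551. The distances of TAGLN2 and ACTA2 (1.43) include knockout replicate 3, at 128 and 0.307 CPM, and were not measured without it. Because the profile includes the contrast that chose TAGLN, this is a description.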

How the data were processed

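Ribosome-depleted total RNA of 3 WT and 3 TOP3B knockout libraries was measured. The authors deposited, per gene and library, an estimated count given in whole numbers and an RPKM value. Salmon 1.10.1 and hg19 appear in the submitters' processing notes, with no role given. One row of 35820, named E2F1 and E2F2 in the 2 tables, was left out. Of 35819 genes, 99.2% matched a GENCODE v29 position (GRCh38), and no hg19 position is used.

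After filterByExpr, the test was that of edgeR 4.0.16 (TMM, quasi-likelihood fit, Benjamini-Hochberg over 13965 genes, threshold 0.05) in R 4.3.3. Each SE is the log2 fold change divided by the square root of F, with 4 residual degrees of freedom. CPM values use the TMM-scaled library sizes. The alternatives were DESeq2 1.42.0, limma-voom and limma-trend (limma 3.58.1) on log2 of RPKM plus 1 or 0.1, other scalings and filters, a robust fit and each library left out. The fits were tested on simulated data.

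The 9 members, the 4 lists of related genes, the 4 marker lists and all tests were chosen with earlier results of these data known. The rule named all members, and in each related list the called gene with the largest change per direction with a mean of at least 1 CPM (2 where only 1 direction had calls, the 2 most abundant where none had), the 5 genes with at least 5 CPM whose profile is nearest to TAGLN, and the gene overlapping it. Replicate numbers stand in the WT labels only, and those of the knockout are in accession order. In the related lists 2 genes are counted but not reported by name here. Counting error sets the precision at low counts.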

Additional observations from a re-analysis of the deposited data

How the results depend on the processing

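No paired analysis was possible because the knockout labels carry no replicate numbers. Each of the 8 tested members was refitted under 16 alternatives. TPM1 kept its direction and passed in all of them. TAGLN kept its direction in all, with a log2 fold change of -2.43 to -2.24 with each library left out and -1.99 on log2(RPKM + 1), where the added 1 shrinks low values. TAGLN2 reversed to -0.42 without knockout replicate 3, and reached 1.06 without knockout replicate 2. With DESeq2, CNN2 at -0.58 and TPM2 at -0.80 passed, and 2199 genes were called in place of 1095. The cause was not tested. With each library left out, TPM2 ranged from -1.14 to -0.62 and CALD1 from -0.68 to -0.51, and the count of called genes ran from 223 to 1899, with the highest value without knockout replicate 3. In the same 6 fits, 2 to 8 contractile genes, 0 to 2 of the SRF list and 0 to 7 actin filament binding proteins (at 7, 5 lower and 2 higher) were called, against 6, 1 and 3, and DESeq2 called 2 of the SRF list. With 5 libraries fewer samples enter each fit. TPM3, which did not pass, changed sign to 0.02 with library size alone and on log2(RPKM + 0.1) and to 0.019 on log2(RPKM + 1), and SMTN ranged from -0.06 to 0.12 with each library left out. With merged exons as the length, 5 members in WT and 4 in the knockout kept their place in the order. Of the 5 genes with profiles nearest to TAGLN, 2 stayed with a minimum of 1 CPM and 1 with 20 CPM. The depth leaves CNN1, at 2 to 10 counts per library, without a usable comparison.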
